A study of Mus musculus with 9 samples.

Results

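The genes described here are 10 mouse genes that mark the stem cells of the intestinal crypt or are switched on by Wnt signalling there: Lgr5, Ascl2, Olfm4, Smoc2, Axin2, Rnf43, Znrf3, Sox9, Ephb2 and Cd44. A probe set, a group of short probes that reads 1 transcript region on an Affymetrix array, was taken for a gene when the platform annotation tied it to that gene symbol alone. This gave 20 of 45101 probe sets for 9 of the 10 genes. Ephb2 had none and was not analysed here. The filter on dim signal kept 16 of the 20, and each of the 9 genes had at least 1 of them.

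The arrays measured RNA from whole distal small intestine, so epithelium, muscle, nerve and blood cells were read together, and fewer cells of a type cannot be told apart from less RNA per cell. All mice carried Bacteroides thetaiotaomicron, a common gut bacterium, for 10 days before sampling. There were 9 arrays in 3 groups of 3: BP, whose tissue was labelled as Rag1 and whose name the labels do not spell out; Rag1, named for the gene that assembles antibody and T cell receptor genes, with no allele given; and B6, the wild type. Age and sex are not in the labels, nor is whether each array stands for 1 mouse, so the p-values cover the spread among these arrays and nothing beyond it.

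Wnt proteins bind Frizzled and Lrp receptors and keep beta-catenin from being degraded, so that it can enter the nucleus and act with TCF factors. In the crypt this signal keeps stem cells dividing, and R-spondins strengthen it through Lgr4 and Lgr5. Several targets act back on the pathway: Axin2 is part of the complex that degrades beta-catenin, and Rnf43 and Znrf3 are ubiquitin ligases that remove Frizzled from the cell surface. Lgr5, Ascl2, Olfm4 and Smoc2 are enriched in the columnar stem cells at the crypt base.

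Of these genes Axin2 differed most. Its brightest probe set was 2.17-fold lower in BP than in Rag1 tissue, and its BP and B6 arrays overlapped. Among the stem cell markers, the brightest probe sets of Lgr5, Olfm4 and Ascl2 overlapped between BP and Rag1. That of Smoc2 was lower on every BP array than on every Rag1 array, though it was not called (limma adjusted p = 0.338). In BP against Rag1 tissue, 2 of the 16 tested probe sets passed an adjusted p under 0.05 in limma, against 3.80% of all 27022 tested probe sets. The one of Axin2 was lower, as were 729 of all tested, and the one of Ascl2 higher, as were 298. The Ascl2 probe set was above the limit for dim signal in BP only, so it entered the test through the group in which it is high and its call supports nothing further. Counted by gene, with the brightest tested probe set standing for each, 1 of 9 genes passed, against 3.26% of 13570 genes. In Rag1 against B6 tissue 0 of the 16 passed, where the share over all probe sets was 0.329% and over genes 0.391%. In BP against B6 tissue 0 of the 16 passed as well, where those shares were 0.633% and 0.582%. At an unadjusted p under 0.05 in limma, the members came to 4 of 16 in BP against Rag1 (20.0% of all probe sets), 1 of 16 in Rag1 against B6 (5.56%) and 2 of 16 in BP against B6 (14.6%). The BP and Rag1 arrays are each used in 2 of these comparisons, and the B6 arrays too.

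**Figure D1:**
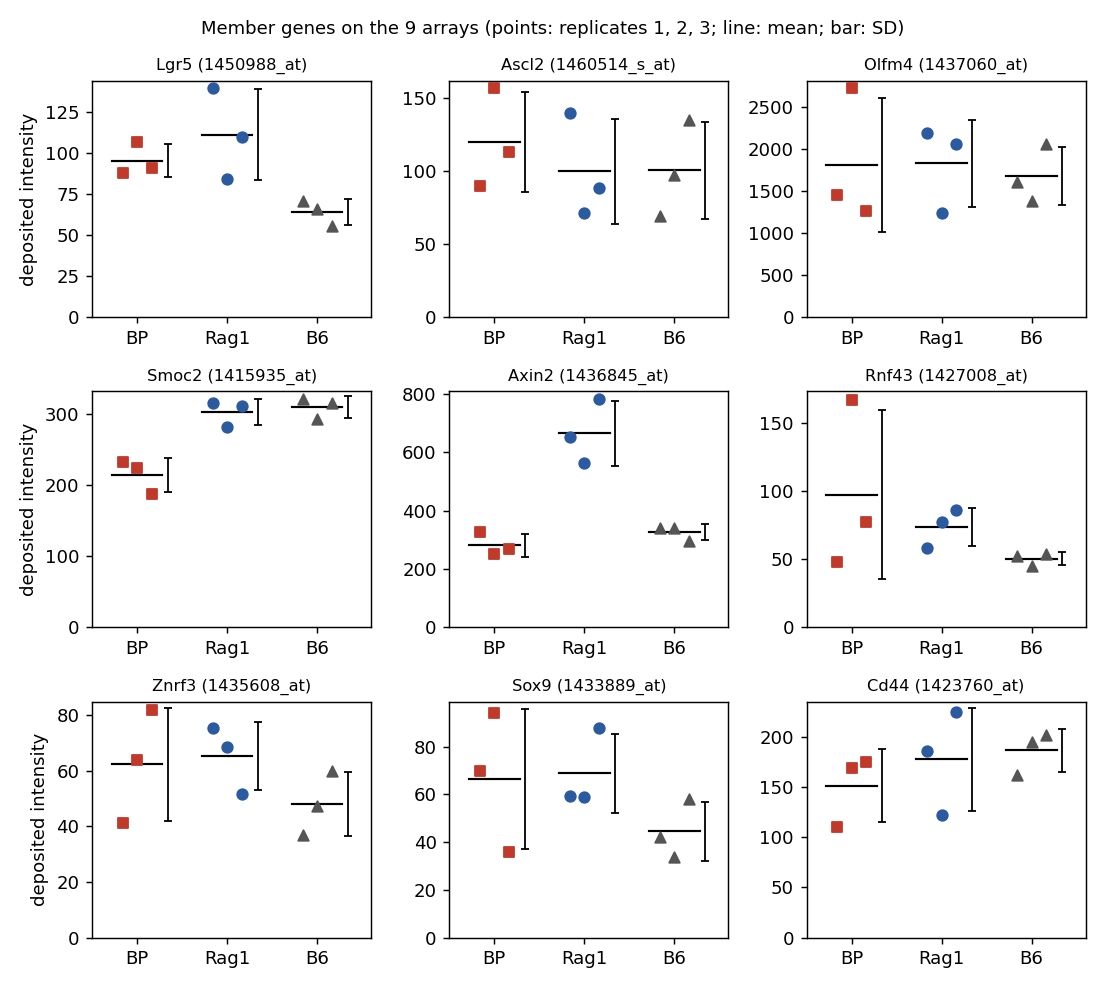
Deposited intensity (y axis, from 0, linear) of the brightest tested probe set of each of the 9 genes on every array, with groups on the x axis; points are the 3 replicates, lines the means and bars the SD. For Axin2 the BP arrays (251 to 326) and the B6 arrays (296 to 342) lie below every Rag1 array (562 to 782), while Olfm4 overlaps in all groups.

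Several facts of the whole series touch these values. The actin control's signal near the 3' end over that near the 5' end, a sign of shortened RNA when high, was 14.2, 2.43 and 20.2 on BP replicates 1, 2 and 3, 1.53 to 1.77 for Rag1, and 1.76 to 4.17 for B6. Its part in the results was not tested beyond the alternatives given. The typical spread of a probe set within a group, as the median SD on the log2 scale, was 0.437 for BP, 0.211 for Rag1 and 0.227 for B6. Xist, transcribed in females, read 36.0, 624 and 1740 on BP replicates 1, 2 and 3, at most 24.1 on the Rag1 arrays and at least 1090 on the B6 arrays. Eif2s3y, a gene of the Y chromosome, read 17, 3.16 and 3.34 on those BP replicates, 44.9 to 109 for Rag1 and 1.4 to 7.22 for B6. Between Rag1 and B6, sex and group could not be told apart. Between BP and Rag1 they were partly mixed, since BP replicates 2 and 3 read high for Xist and no Rag1 array did. The epithelial markers Epcam and Vil1 were bright on every array, but lowest in BP. Epcam read 3880 to 4090 in BP, 5490 to 6250 in Rag1 and 5080 to 5810 in B6. Vil1 read 4400 to 5090 in BP, 5620 to 5770 in Rag1 and 5530 to 6270 in B6. The part of this in the member values was not tested. Igha, which encodes the constant part of IgA, was at 54.5 to 111 in BP, 83.4 to 93.4 in Rag1 and 2580 to 6390 in B6, while the Rag1 probe set was dim on every array, at most 22.8.

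Axin2 is the member most often used to read out Wnt activity, since its transcription follows beta-catenin and TCF. Its brightest probe set, 1436845_at, read 326, 251 and 267 on BP replicates 1, 2 and 3, 651, 562 and 782 on the Rag1 arrays, and 342, 342 and 296 on the B6 arrays. The Rag1 arrays were all above the other 6, and BP and B6 overlapped. The group means were 281 ± 39.8 for BP, 665 ± 110 for Rag1 and 326 ± 26.5 for B6 (SD of intensity, n = 3 each). On the scale of log2(intensity + 16) after quantile normalization, the difference of BP from Rag1 was -1.12 ± 0.23 (SE; 95% interval -1.61 to -0.63; limma adjusted p = 0.025), which is 2.17-fold lower.

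For Rag1 against B6 the difference of Axin2 was 0.94 ± 0.23 (SE; 95% interval 0.45 to 1.44), or 1.92-fold higher in Rag1, and limma gave an adjusted p of 0.230. The fit pooled the spread of the 3 groups, so every Axin2 difference had the same SE. The SD of Axin2 on the log2 scale was 0.407 in BP, 0.149 in Rag1 and 0.131 in B6. The spread of BP thus entered the p-value of Rag1 against B6, and that of B6 the p-value of BP against Rag1. The comparison of Rag1 with B6 passed in 6 of 21 alternatives. It did so when only the Rag1 and B6 arrays were fitted (limma adjusted p = 0.00553) and without BP replicate 2 (0.00385), settings that leave the difference at 0.94. Array weights (0.932, adjusted p = 0.00123) and the actin ratio as a covariate were others. For BP against B6 the difference was -0.18 ± 0.23 (95% interval -0.67 to 0.32, adjusted p = 0.777), and it passed in 1 of 21 alternatives, in which BP replicate 2 alone stood for BP (-0.63). With BP replicate 2, which has the lowest actin ratio in its group and an Xist signal of 624, as the lone BP array, the difference of BP from Rag1 was -1.57. With BP replicate 1, which has low Xist and an actin ratio of 14.2, it was -0.78. Before normalization the median intensity was 48 on BP replicate 2, against 30.2 and 32.4 on BP replicates 1 and 3. On the log2 scale Axin2 was further apart between BP replicates 1 and 2 after normalization (8.59 and 7.8) than as deposited (intensities 326 and 251). BP replicate 3 alone was not fitted. A lone BP array takes its spread from Rag1 and B6, which varied less than BP. In such fits the p-values of BP against the other groups are too small and are not used as support. Counts of calls and of alternatives passed include 2 such fits. With the actin ratio as a covariate, the Axin2 difference was 1.087 for Rag1 from B6 (limma adjusted p = 0.00839) and -0.474 for BP from B6 (0.166). For BP from Rag1 it stayed negative with that covariate, within -1.57 to -0.78, the range over the 21 alternatives. The part of RNA quality in the Axin2 difference was not tested beyond such alternatives, and that of sex was not tested.

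The call of Axin2 between BP and Rag1 depended on which arrays were fitted. It kept its sign in all of 21 alternatives but lost the call without Rag1 replicate 1 (adjusted p = 0.116), Rag1 replicate 2 (0.0967), Rag1 replicate 3 (0.0978), BP replicate 3 (0.0624) or B6 replicate 1 (0.05), and when only BP and Rag1 arrays were fitted (0.0846). A second, dim probe set of Axin2, 1421341_at, did not show the pattern. It read 20.2 to 49.7 on the BP arrays, 28.4 to 50.2 for Rag1, and 22.5 to 34.2 for B6, and its difference of BP from Rag1 was -0.12 ± 0.31 (adjusted p = 0.881). Which stretch of the gene each probe set reads was not analysed here.

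**Figure D2:**
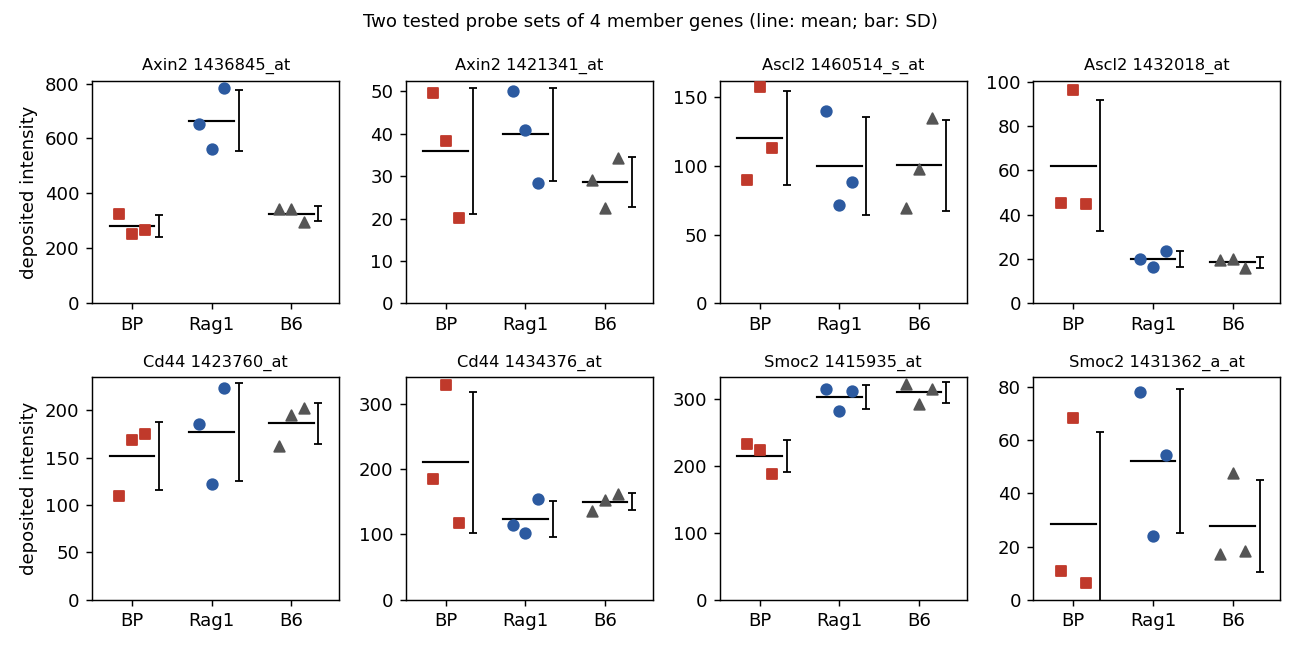
Deposited intensity (y axis, linear, from 0) of a pair of tested probe sets each for Axin2, Ascl2, Cd44 and Smoc2, by group (x axis); points are arrays, lines means and bars SD. The pairs do not show the same pattern: Axin2 1436845_at separates Rag1 (562 to 782) from the other groups and 1421341_at does not, and Ascl2 1432018_at is highest on the 3 BP arrays (44.6 to 96.3).

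Rnf43 and Znrf3, which act as a pair of feedback inhibitors on Wnt receptors, did not follow Axin2. Rnf43 read 47.8, 167 and 77.6 on the BP arrays, 58.6, 77.2 and 86 on the Rag1 arrays, and 52.6, 45.1 and 53.7 on the B6 arrays. BP replicate 2 was the highest of all 9, and the BP arrays overlapped both other groups. The difference of BP from Rag1 was 0.32 ± 0.29 (95% interval -0.32 to 0.95, adjusted p = 0.609), that of Rag1 from B6 was 0.24 ± 0.29 (95% interval -0.39 to 0.88, adjusted p = 0.999), and that of BP from B6 was 0.56 ± 0.29 (adjusted p = 0.409).

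Znrf3 read 41.3, 63.7 and 81.8 on the BP arrays, 75.5, 68.6 and 51.8 on the Rag1 arrays, and 37, 47.3 and 60 on the B6 arrays. All 3 groups overlapped. Its difference of BP from Rag1 was -0.015 ± 0.28 (95% interval -0.63 to 0.60, adjusted p = 0.986), an interval that does not reach the Axin2 difference of -1.12. A second Znrf3 probe set was too dim to test, with 3.92 to 26.1 over all arrays.

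Lgr5, the R-spondin receptor by which crypt base stem cells are usually identified, read 88.3, 107 and 91 on the BP arrays, 140, 84.5 and 110 on the Rag1 arrays, and 71.1, 66.1 and 55.7 on the B6 arrays (probe set 1450988_at). Every Rag1 array and every BP array was above every B6 array in deposited intensity, and BP and Rag1 overlapped. After normalization the BP and B6 arrays overlapped. The Rag1 and B6 arrays still did not, with a difference of 0.47 ± 0.24 (95% interval -0.05 to 0.98), but limma gave an adjusted p of 0.961. BP and Rag1 differed by -0.056 ± 0.24 (95% interval -0.57 to 0.46, adjusted p = 0.929), and BP and B6 by 0.41 ± 0.24 (adjusted p = 0.460). The other Lgr5 probe set, 1444519_at, was dim and untested, and ran the other way: 7.06 to 21.8 on the BP arrays, 6.42 to 30.5 for Rag1, and 22.6 to 33.4 for B6.

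Ascl2 is the transcription factor that holds the stem cell programme of the crypt base. Its brightest probe set, 1460514_s_at, read 90, 157 and 113 on the BP arrays, 140, 71.3 and 88.2 on the Rag1 arrays, and 69.1, 97.3 and 135 on the B6 arrays, with all groups overlapping and a difference of BP from Rag1 of 0.38 ± 0.27 (adjusted p = 0.475). A dimmer probe set, 1432018_at, read 45.3, 96.3 and 44.6 on the BP arrays, 20.2, 16.4 and 23.4 on the Rag1 arrays, and 19.7, 20.2 and 15.7 on the B6 arrays. Its BP arrays were all above the other 6. Its mean log2 level was 6.197 in BP, above the limit of 5.304 for dim signal, and 5.157 in Rag1 and 5.170 in B6, below it, so the probe set was tested only through its BP level. The difference of BP from Rag1 was 1.04 ± 0.25 (95% interval 0.49 to 1.59, adjusted p = 0.0448). Against B6 the same probe set differed by 1.03 ± 0.25 (adjusted p = 0.1).

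That second Ascl2 call passed in 6 of 20 alternatives. It was lost with the pseudocount 1 (limma adjusted p = 0.0586), without filtering (0.0772), on the values as deposited (0.0834) and with the replicate number as a block (0.0778). The call was also lost when only the BP and Rag1 arrays were fitted (0.113) and when BP replicate 1 alone stood for BP. Leaving out any array except BP replicate 2 lost it as well (0.063 to 0.168, against 0.045 without BP replicate 2). One more probe set, 1422396_s_at, was untested and read 9.55 to 15.8 on the BP arrays, 15.3 to 28 for Rag1, and 13.1 to 25.9 for B6. The mean log2 level of this untested probe set was lower in BP (4.843) than in Rag1 (5.208), and under the limit for dim signal in every group. The probe set of the second call was under that limit as well in Rag1 and B6, so its positive sign is not counted as agreement. The brightest Ascl2 probe set was positive in BP against Rag1 (0.38) but not called.

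Olfm4, a secreted glycoprotein made by crypt base cells, was measured by 1 probe set. It read 1460, 2730 and 1260 on the BP arrays, 2200, 1240 and 2060 on the Rag1 arrays, and 1610, 1380 and 2060 on the B6 arrays. The means of 1820 ± 796, 1830 ± 521 and 1680 ± 347 for BP, Rag1 and B6 (SD, n = 3 each) differed by less than the spread within each group. The difference of BP from Rag1 was 0.023 ± 0.25 (95% interval -0.52 to 0.56, adjusted p = 0.973), and it changed sign with the normalization, to -0.076 with median centring.

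Smoc2, a matrix protein of the stem cell signature that fibroblasts also make, was lowest in BP. Probe set 1415935_at read 232, 224 and 187 on the BP arrays, 315, 281 and 311 on the Rag1 arrays, and 321, 292 and 315 on the B6 arrays. The BP arrays were all below the other 6, and Rag1 and B6 overlapped. The difference of BP was -0.36 ± 0.20 from Rag1 (adjusted p = 0.338) and -0.47 ± 0.20 from B6 (adjusted p = 0.300), neither past the threshold. With the actin ratio as a covariate the difference from B6 was -0.655 (adjusted p = 0.0451). The dimmer Smoc2 probe set, 1431362_a_at, spread too widely to compare, from 6.29 to 68.3 within BP alone.

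Sox9 is a transcription factor of stem, progenitor and Paneth cells that Wnt signalling induces. Its brightest probe set read 69.6, 94 and 35.8 on the BP arrays, 59.3, 59 and 88 on the Rag1 arrays, and 42, 33.7 and 57.9 on the B6 arrays. The difference of Rag1 from B6 was 0.30 ± 0.30 (95% interval -0.35 to 0.94, adjusted p = 0.999) and that of BP from Rag1 was -0.020 ± 0.30 (adjusted p = 0.981). In 1424950_at, another Sox9 probe set, the BP arrays read 12.8 to 29, the Rag1 arrays 32.3 to 60.9 and the B6 arrays 22.9 to 46, with a difference of BP from Rag1 of -0.67 ± 0.31 (adjusted p = 0.253). The remaining tested one, 1451538_at, differed by -0.31 ± 0.32 (adjusted p = 0.661).

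Cd44, a hyaluronan receptor of crypt cells that leukocytes carry as well, had 4 probe sets, 3 of them tested. The brightest, 1423760_at, read 110, 169 and 175 on the BP arrays, 186, 122 and 224 on the Rag1 arrays, and 162, 195 and 202 on the B6 arrays. BP differed from Rag1 by -0.063 ± 0.25 (adjusted p = 0.925) and Rag1 from B6 by -0.22 ± 0.25 (adjusted p = 0.999). The others pointed in opposite directions between BP and Rag1, with 0.75 ± 0.26 for 1434376_at (adjusted p = 0.130) and -0.80 ± 0.36 for 1452483_a_at (adjusted p = 0.245). BP replicate 2, at 329, stood above the other BP arrays (185 and 118) for 1434376_at and, at 8.14, below them (35.1 and 16.5) for 1452483_a_at.

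**Figure D3:**
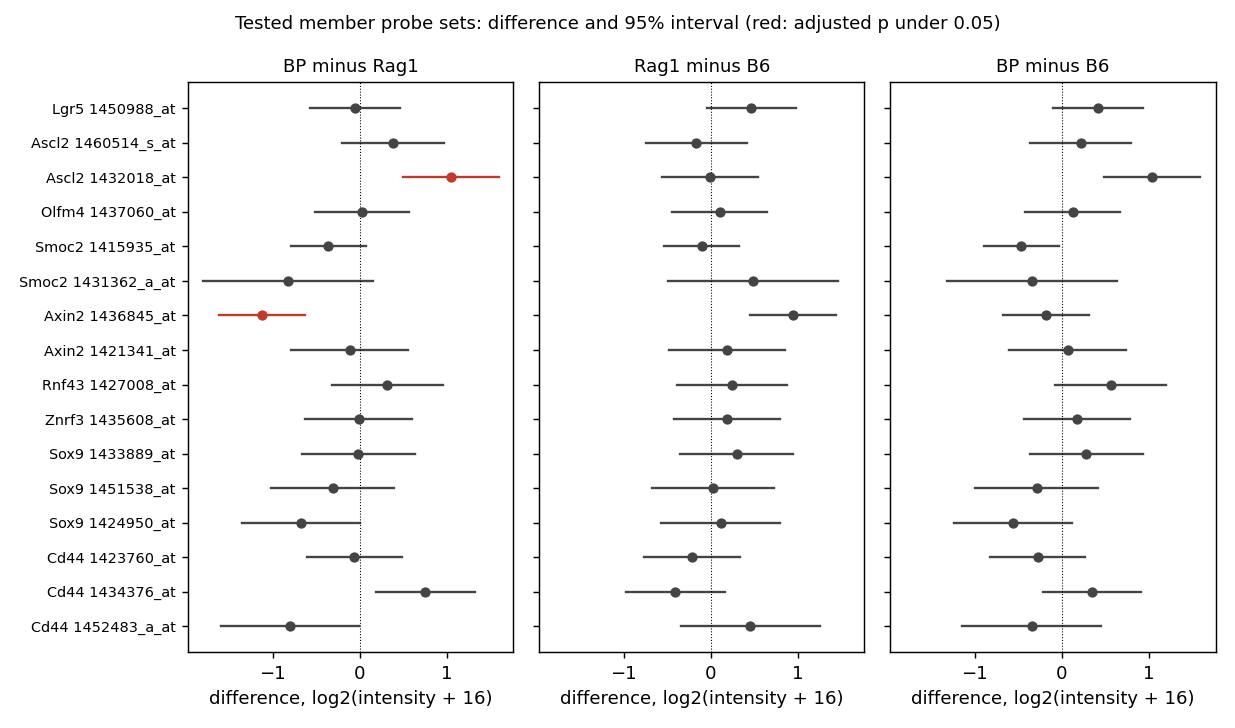
Difference on the scale of log2(intensity + 16) (x axis) with its 95% interval for the 16 tested probe sets (rows), in BP minus Rag1, Rag1 minus B6 and BP minus B6; red marks an adjusted p under 0.05. Axin2 1436845_at (-1.12) and Ascl2 1432018_at (1.04) are the marked rows, both in BP minus Rag1, the Ascl2 one tested only through its BP level, and the Axin2 interval in Rag1 minus B6 lies above 0.

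The signs and medians of the 16 probe sets are given beside those of all probe sets, with no test of a shift. In BP against Rag1, 5 were positive and 11 negative, with a median of -0.060, against -0.045 over all tested probe sets. In Rag1 against B6, 11 were positive and 5 negative, with a median of 0.146 against 0.010. In BP against B6, 9 were positive and 7 negative, with a median of 0.093 against -0.042. After normalization the arrays of the compared groups did not overlap for 3 of 16 probe sets in BP against Rag1 (23.6% of all tested), 3 in Rag1 against B6 (17.7%) and 2 in BP against B6 (18.6%), which is near the background each time. The 95% intervals, which are not adjusted for the number of tests, reached 0.43 to 0.97 to either side with 3 arrays per group. Calls used the adjusted p, so differences beyond these intervals could also go uncalled. The largest uncalled member difference, without its sign, was 0.825 in BP against Rag1, 0.942 in Rag1 against B6 and 1.028 in BP against B6.

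The rest of the Wnt pathway was read from lists chosen by function. Among 11 Frizzled, Lrp and Lgr4 receptor genes, all tested, 1 fell in BP against Rag1 and none rose, with a median of -0.21, where 3.26% of all genes passed. The gene that fell was Lgr4, the R-spondin receptor found throughout the crypt and a close relative of Lgr5. Lgr4 read 514, 518 and 486 on the BP arrays, 1240, 1040 and 1080 on the Rag1 arrays, and 581, 588 and 666 on the B6 arrays, so that the Rag1 arrays again stood above all others. Its difference was -1.08 ± 0.17 for BP from Rag1 (adjusted p = 0.0129), 0.84 ± 0.17 for Rag1 from B6 (adjusted p = 0.105) and -0.24 ± 0.17 for BP from B6 (adjusted p = 0.579). The call between BP and Rag1 held in 18 of 21 alternatives and was lost without Rag1 replicate 1 (adjusted p = 0.0896), without Rag1 replicate 2 (0.0694) and when only those groups were fitted (0.0527).

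Among 19 genes of beta-catenin control and TCF factors, 17 were tested, and 1 rose and 1 fell in BP against Rag1 (median -0.047), against the same 3.26%. Dvl1, a Dishevelled protein that passes the signal on from Frizzled, was 2.31-fold higher in BP (1.21 ± 0.23, adjusted p = 0.0218). Gsk3b, the kinase that marks beta-catenin for degradation, was 1.96-fold lower in BP (-0.97 ± 0.24, adjusted p = 0.0470). Dvl1 passed in 14 of 21 alternatives and Gsk3b in 9. The Dvl1 difference was 0.62 (adjusted p = 0.0831) with the actin ratio as a covariate, the alternative in which it was smallest.

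The remaining pathway lists had no call in any comparison. Wnt ligands, R-spondins and their release factors had 6 of 11 genes tested, with a median of 0.097 in BP against Rag1, and Wnt4 came closest there (-0.65 ± 0.41, adjusted p = 0.415). Secreted inhibitors had 5 of 8 tested (median 0.081), with Sfrp5 at 0.82 ± 0.23 (adjusted p = 0.0737). The other Wnt targets, 12 of 12 tested, had a median of -0.29 in BP against Rag1. In that list Cdca7 differed by -0.70 ± 0.22 (adjusted p = 0.107), and the cyclin Ccnd1 by -0.84 ± 0.29 (adjusted p = 0.134) from Rag1 and by -1.30 ± 0.29 (adjusted p = 0.0802) from B6. Other crypt base and reserve stem cell genes, 10 of 11 tested, had medians of 0.114, 0.122 and 0.179 in BP against Rag1, Rag1 against B6 and BP against B6, with Lrig1 at -0.73 ± 0.40 (adjusted p = 0.343) in the first. Of the Notch genes, 8 of 8 were tested and none passed; Notch2 came to -0.49 ± 0.31 (adjusted p = 0.414). The medians over all genes were -0.016, -0.020 and -0.041 in the same 3 comparisons.

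**Figure D4:**
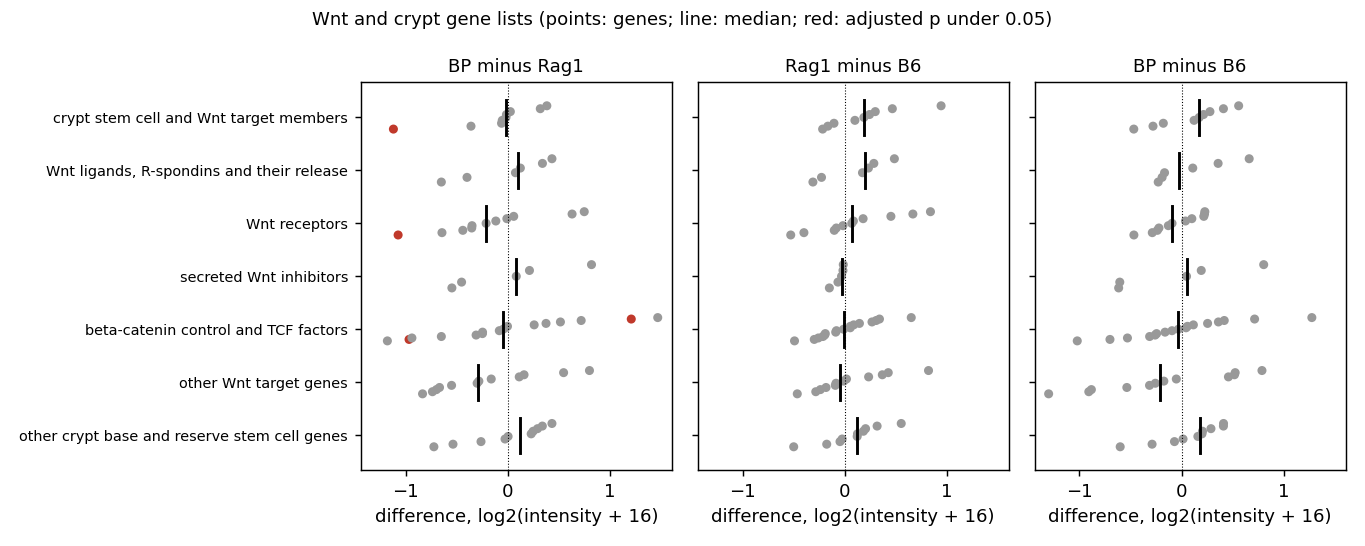
Differences on the scale of log2(intensity + 16) (x axis) of every tested gene (points) in the lists of Wnt pathway and crypt genes (rows), with the list median as a line and adjusted p under 0.05 in red, for the 3 comparisons. Axin2, Lgr4, Dvl1 and Gsk3b are the 4 red points, all in BP minus Rag1, and every list has genes on both sides of 0 there.

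Lgr4 was also among the 3 genes most like Axin2 over the 9 arrays. Likeness was the root mean square difference of log2 values after each gene was centred on its own mean. It was 0.155 for Ralgapa2, 0.164 for Hbegf and 0.188 for Lgr4, against a median of 0.622 over all genes. Hbegf, a growth factor that activates the EGF receptor, read 124, 90.7 and 96.6 on the BP arrays, 269, 290 and 328 on the Rag1 arrays, and 158, 116 and 118 on the B6 arrays, with a difference of -1.31 between BP and Rag1. Ralgapa2, a subunit of a GTPase activating complex for Ral, differed by -0.90. Both were chosen for their likeness to Axin2 on these arrays, so their differences restate that choice and carry no test. The likeness of Lgr4 to Axin2 was picked from the same arrays and carries no test either. For Lgr5 the nearest genes were Rnf144b (0.094), Rab24 (0.120) and Frrs1 (0.121), against a median of 0.436, with no test here either. Genes that vary little lie near each other by this measure.

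**Figure D5:**
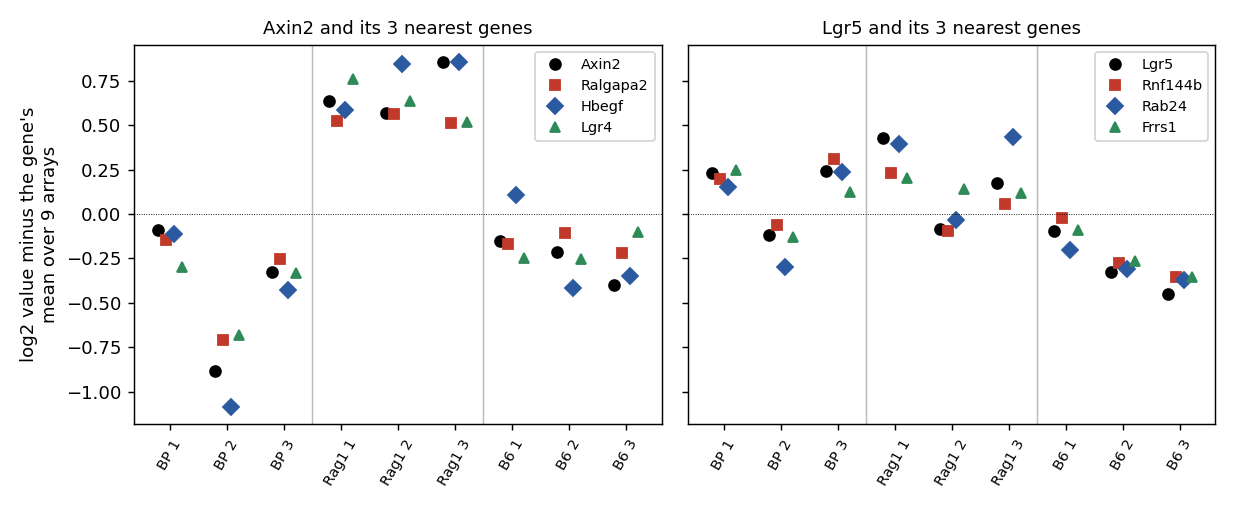
Centred log2 values (y axis) of Axin2, Lgr5 and the 3 genes nearest to each, on the 9 arrays (x axis); each point is 1 array. Axin2, Ralgapa2, Hbegf and Lgr4 are at 0.511 or more on every Rag1 array and at 0.108 or less on every BP and B6 array, and each is lowest on BP replicate 2. That low is on normalized values. In deposited intensity BP replicate 2 is lowest for Axin2 and Hbegf, but the highest BP array for Lgr4 (518) and Ralgapa2 (99.5).

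The promoters of Axin2 and Lgr4 are shown because their values were alike on these arrays, a likeness that was not tested. Each is given as the 250 bases before the annotated start in RefSeq for GRCm38.p6, read 5′ to 3′ on the plus strand. The arrays hold no measurement of these sequences.
Axin2, chr11:108920099-108920348: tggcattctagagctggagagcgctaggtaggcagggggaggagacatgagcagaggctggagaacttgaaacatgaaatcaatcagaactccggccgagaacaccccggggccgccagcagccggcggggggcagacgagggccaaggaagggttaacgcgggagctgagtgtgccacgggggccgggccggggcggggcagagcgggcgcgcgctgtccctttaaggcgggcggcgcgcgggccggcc
Lgr4, chr2:109917397-109917646: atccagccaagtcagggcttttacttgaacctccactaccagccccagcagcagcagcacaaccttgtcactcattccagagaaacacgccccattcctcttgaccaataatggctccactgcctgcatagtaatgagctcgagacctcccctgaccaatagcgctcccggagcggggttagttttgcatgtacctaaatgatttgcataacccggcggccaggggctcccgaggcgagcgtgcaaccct
A TCF binding motif was searched as CTTTGAA and CTTTGAT on both strands, in windows reaching from 250 bases before to 50 bases after the start. Neither was found in the 7 promoters that the table holds for 6 of the 10 genes, nor in that of Lgr4, which is why no letters are in capitals. That says only that these letters are absent from these windows. Over all 32851 promoters 5.14% held CTTTGAA and 3.73% held CTTTGAT. The Axin2 window was 70.0% G and C and the Lgr4 window 58.3%, against a median of 52.7%.

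A few markers of neighbouring cell types passed in BP against Rag1, where 3.26% of all genes did. Of 7 tested Paneth cell genes, 1 fell in BP: Pla2g2a, a secreted phospholipase, read 198 to 276 on the BP arrays, 668 to 1030 for Rag1, and 163 to 331 for B6, with the Rag1 arrays highest. It differed by -1.67 ± 0.27 between BP and Rag1 (adjusted p = 0.0123) and by 1.71 ± 0.27 between Rag1 and B6 (adjusted p = 0.0173), calls held in 18 and 16 of 21 alternatives. The summed intensity of the Paneth list overlapped, at 28600 to 30800 in BP, 28900 to 34900 in Rag1 and 16600 to 31200 in B6. Of 6 goblet cell genes 1 fell, the mucin Muc2 (-0.53 ± 0.13, adjusted p = 0.0417), a call held in 11 of 21 alternatives, and the list summed to 20100 to 20700 in BP, 25300 to 31400 in Rag1 and 24000 to 24800 in B6.

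Of 10 smooth muscle and stroma genes 2 fell in BP against Rag1, Myh11 by 1.51 ± 0.25 (adjusted p = 0.0134) and Des by 0.69 ± 0.17 (adjusted p = 0.0485) on the log2 scale. Myh11 passed in 18 of 21 alternatives, with -0.78 when the actin ratio was a covariate, and Des in 5 of 21. The summed level of that list was 10200 to 17200 in BP, 11400 to 14800 in Rag1 and 11700 to 12700 in B6. None of 9 villus enterocyte genes passed in any comparison, with sums of 57800 to 64400 in BP, 55700 to 64500 in Rag1 and 66100 to 68300 in B6. None of 10 proliferation genes passed either, with sums of 3800 to 4710 in BP, 3810 to 4790 in Rag1 and 5020 to 5410 in B6, so that the B6 arrays were highest. Of 9 leukocyte genes none passed between BP and Rag1, and 4 were lower both in BP and in Rag1 than in B6, Igha, Jchain, Cd3e and Cd3g; the sums were 1750 to 1970 in BP, 1260 to 1460 in Rag1 and 4800 to 11200 in B6. The part that any of these cell types had in the Axin2 and Lgr4 values was not tested.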

How the data were processed

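The labels' protocols name biotinylated cRNA hybridised to Affymetrix arrays. The deposited values are linear intensities of 45101 probe sets, 1 to 21693.6; their summary and scaling are not given in the sources used here. Each value column carries the name of its sample, and titles give the group. Trimmed means differed between arrays (100.3 to 141.2), so log2(intensity + 16) was quantile-normalized. Probe sets in the lowest 40% by mean (under 23.5) and 64 control probe sets were left out, and 27022 tested. Differences understate the change of dim genes. limma 3.58.1 in R 4.3.3 fitted 1 mean per group on all 9 arrays with an intensity trend, two-sided, with Benjamini-Hochberg adjustment over all 27022. A gene's brightest tested probe set represents it. Symbols come from the platform annotation.

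The members and lists were chosen with earlier results of these data known. Named are all members, up to 4 called genes per list (or 2 with the smallest p), not all of which are printed, and the 3 genes most like Lgr5 and Axin2, the member that varied most. The second Axin2, Ascl2 and Cd44 probe sets follow from the rule that every probe set is used. The fit was tried on simulated data with the same spread in every group, so that trial does not cover the wider spread of BP. Alternatives covered normalization, pseudocount, filter, the groups fitted, replicate block, array weights, actin ratio and left-out arrays. No 2 arrays were identical.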

Additional observations from a re-analysis of the deposited data

How the results depend on the processing

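With 3 arrays per group, counts of calls depended on the spread used, and dim probe sets are limited by background signal. The number of called probe sets between BP and Rag1 was 1027 (298 higher, 729 lower), but 158 higher and 1054 lower with median centring and 130 higher and 641 lower on the values as deposited. It was 183 when only those groups were fitted, 4023 with array weights, 4191 with the actin ratio as a covariate, 5936 with BP replicates 1 and 3 left out, 3281 with BP replicates 2 and 3 left out (chosen after seeing the data; a lone BP array borrows the smaller spread of Rag1 and B6), and 18 to 5275 when single arrays were left out. Between Rag1 and B6, 89 became 338, 1050, 294, 336 and 339 in those 5 settings, and 37 to 347. Between BP and B6, 171 became 51, 856, 3488, 5657 and 1405, and 55 to 3029, besides 499 with median centring and 108 as deposited. As deposited, the median of all tested probe sets between Rag1 and B6 was 0.123, against 0.010. Of member probe sets, 2 were called between BP and Rag1, but 1 on the values as deposited, with the pseudocount 1, without filtering, with the lowest 60% left out, with the replicate block and with BP replicates 2 and 3 left out, 0 when only those groups were fitted, 4 with BP replicates 1 and 3 left out, and 0 to 3 when single arrays were left out. It was 0 without Rag1 replicates 1, 2 or 3, BP replicate 3 or B6 replicate 1. Between Rag1 and B6 it was 0, but 1 when only Rag1 and B6 were fitted, with array weights and with the actin ratio as a covariate. On leaving out single arrays it was 0 to 1. Between BP and B6 it was 0, but 2 with the actin ratio as a covariate and 4 with BP replicates 1 and 3 left out.

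Sign changes among representatives were small, and none passed the threshold. Olfm4 came to -0.076, -0.025 and -0.101 with median centring (BP minus Rag1, Rag1 minus B6, BP minus B6), -0.053 as deposited and -0.298 with array weights (BP minus Rag1), -0.084 with array weights (BP minus B6), -0.042 with the actin ratio (Rag1 minus B6), and -0.132 and -0.033 with BP replicates 2 and 3 left out (BP minus Rag1, BP minus B6). Znrf3 came to 0.002 with the pseudocount 64 and 0.084 with array weights (BP minus Rag1), and to -0.139 with the actin ratio, -0.134 with BP replicates 1 and 3 left out and -0.074 with 2 and 3 left out (BP minus B6). For BP minus Rag1, Sox9 was 0.047 with the actin ratio, 0.120 with BP replicates 1 and 3 left out and 0.351 with 2 and 3 left out, where Lgr5 was 0.057 and Rnf43 -0.214. Axin2 was 0.164 there for BP minus B6. For Rag1 minus B6, Ascl2 1460514_s_at was 0.034 with array weights and Ascl2 1432018_at 0.058 as deposited. Leaving out single arrays gave, for BP minus Rag1, Cd44 -0.26 to 0.096, Lgr5 -0.184 to 0.073, Olfm4 -0.22 to 0.188, Sox9 -0.206 to 0.236 and Znrf3 -0.291 to 0.138; for Rag1 minus B6, Ascl2 1432018_at -0.12 to 0.085, Ascl2 1460514_s_at -0.372 to 0.023 and Olfm4 -0.032 to 0.311; and for BP minus B6, Axin2 -0.35 to 0.046, Olfm4 -0.121 to 0.287 and Znrf3 -0.104 to 0.325. The causes were not tested. Arrays that share a replicate number share only that number: their deviations correlated at -0.19 to 0.23, and with the replicate block 799, 74 and 142 probe sets passed in the 3 comparisons.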
